A study of Homo sapiens with 6 samples.

Results

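A set of 42 human genes of macroautophagy was followed in C4-2 cells, chosen by gene symbol to cover the start of autophagosome formation, the conjugation of Atg8 proteins to lipid and the receptors that bring cargo. The table used held 14456 genes, and 40 of the 42 symbols had a row in it. MAP1LC3A and MAP1LC3B2 had none and were not analysed here. C4-2 is a castration-resistant derivative of the prostate cancer line LNCaP. Cells in RPMI with serum were given 100 nM IPI-9119, an inhibitor of fatty acid synthase, for 6 days (3 libraries), or the vehicle, 0.1% DMSO (3 libraries). Both groups come from the same single line, and the comparison asks how transcript levels differed after inhibition of the enzyme that makes palmitate.

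Autophagy encloses cytoplasm in a double membrane, the autophagosome, which then fuses with the lysosome. The ULK1 kinase complex starts the process, a class III PI3-kinase complex marks the membrane with the lipid PI3P, and WIPI proteins, ATG2 and ATG9A bring further factors and lipid to it. Conjugation enzymes then attach the Atg8 proteins, LC3 and GABARAP, to the membrane lipid phosphatidylethanolamine, and cargo receptors such as p62 (SQSTM1) bind both ubiquitin-marked cargo and the Atg8 proteins. Much of this machinery is controlled on the protein level, by phosphorylation and turnover, which RNA sequencing does not see.

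Values below are gene counts scaled by the size factor of their library, called normalised counts. Fold changes are on the scale of log2(normalised count + 1), as IPI-9119 minus DMSO, and a gene was called at a limma adjusted p under 0.05 over the 14437 genes tested. Reads recovered from these values, summed over the genes of the table, ran from 19090749 to 20422882 with IPI-9119 and from 21952620 to 23448035 with DMSO. The line's labelled epithelial type was checked against markers. All 10 prostate luminal markers had a row, and their summed level ran from 151741 to 157314 with IPI-9119 and from 258249 to 268892 with DMSO. Of the 10, 8 were called lower and 1 higher, where 31.4% and 31.3% of all genes tested were. The part of this marker difference in the results below was not tested. None of the 4 basal and 5 leukocyte markers had a row, and 3 of 7 fibroblast and endothelial markers did, with summed levels of 138 to 168 with IPI-9119 and 123 to 144 with DMSO. The lowest total of any gene in the table was 61 reads over the 6 libraries. A missing row therefore does not show that a gene had no reads, for these markers or for MAP1LC3A and MAP1LC3B2.

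The autophagy genes moved in both directions. Of the 40 genes, 11 were higher and 15 lower after IPI-9119, and 14 did not pass the threshold. The share called, 65.0%, lay near the 62.8% of all genes tested that were called (31.3% higher and 31.4% lower), so the count alone does not set these genes apart. Their median log2 fold change was 0.02, against 0.00 for all genes, and their median absolute change was 0.28, against 0.39 for all genes. Of the 40, 5 genes (12.5%) were called with a change of at least 2-fold, against 17.2% of all genes. They were OPTN and ATG16L2, which were higher, and ULK1, ATG2A and TFE3, which were lower. The 3 libraries of each group did not overlap for 29 of the 40 (72.5%), against 67.9% of all genes. In bulk RNA, fewer cells that carry a transcript and less of it per cell cannot be told apart.

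**Figure D1:**
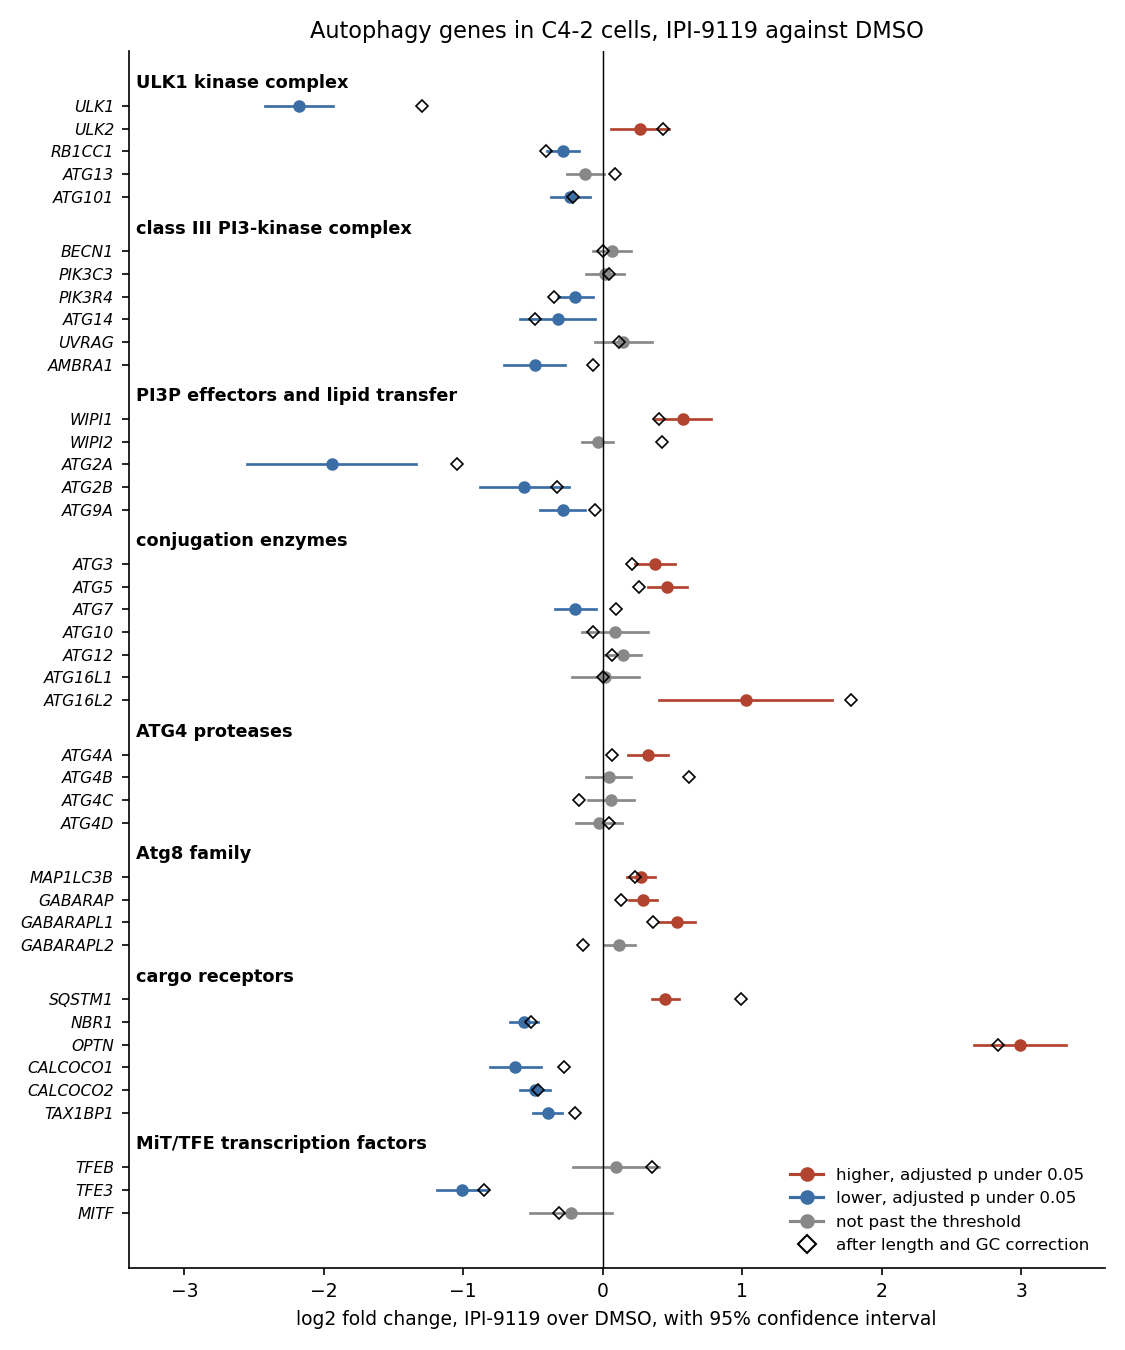
Log2 fold change of each of the 40 autophagy genes, IPI-9119 over DMSO, on the horizontal axis, with genes grouped by role down the page. Circles are estimates with 95% confidence intervals from 3 libraries a group, coloured by call, and open diamonds are the estimates after correcting for length and GC content. OPTN stands alone on the right at 2.99, and ULK1 and ATG2A lie furthest left, at -2.18 and -1.94, with both of their diamonds nearer to 0.

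By median length, genes that fell were longer than genes that rose. The called autophagy genes that were higher had a median exonic length of 5313 nt and those that were lower 7673 nt, and over all called genes these medians were 4237 and 5770 nt. Median GC content was 47.8% and 50.8% for the higher and lower autophagy genes, and 46.0% and 50.9% over all genes. Genes of at least 7000 nt took 22.3%, 23.8% and 23.9% of all values in the IPI-9119 libraries and 25.1%, 26.3% and 25.7% in the DMSO libraries. The fit was therefore repeated with each library corrected for its trend with length and GC content. It called 13 of the autophagy genes higher and 14 lower (over all 14386 genes with both values, 64.8% were called, 30.7% higher and 34.1% lower), and 22 of the 26 calls were kept, with none turned round. Most calls were kept over all genes too, with 7466 kept, 1434 lost and 139 turned round. A second correction, by the length and GC content of each gene's principal transcript, kept 22 and turned 1, ATG9A (background 65.3%). The same 22 genes were called in the same direction in all of these fits. The cause of the trend was not tested.

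**Figure D2:**
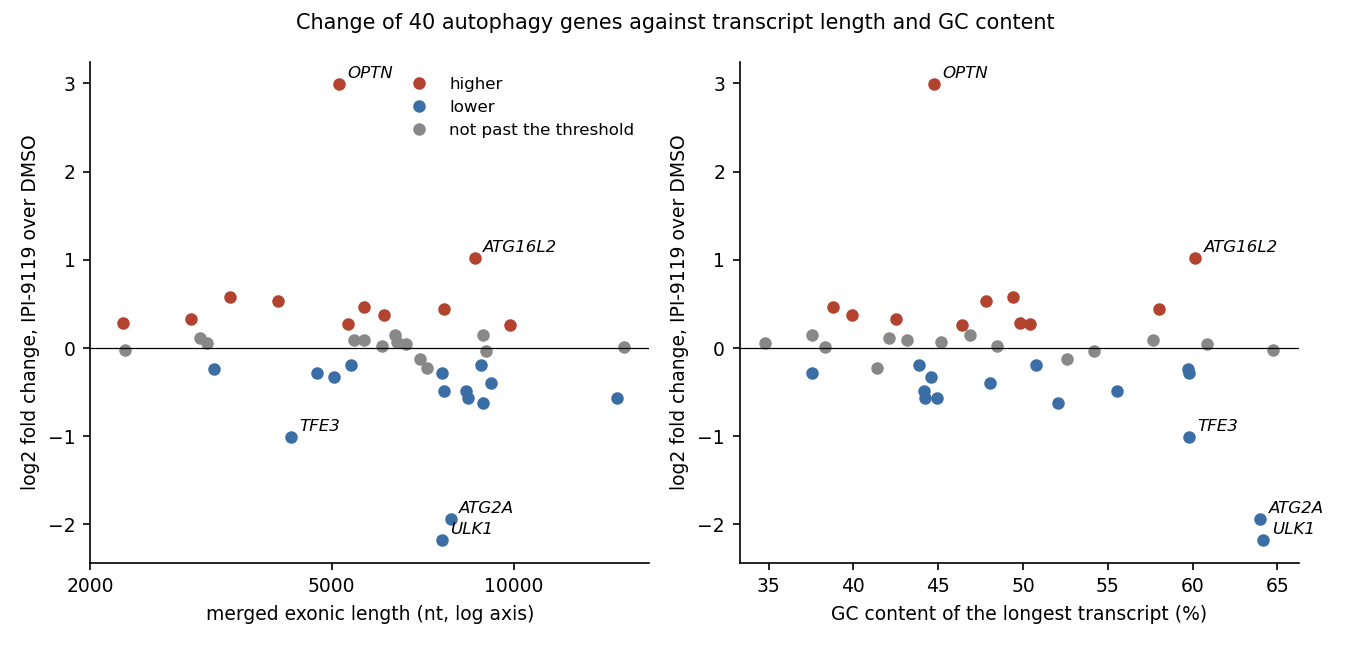
Log2 fold change of the 40 autophagy genes, IPI-9119 over DMSO, against merged exonic length in nt on a log axis (left) and GC content of the longest transcript in percent (right). Each point is a gene, coloured by its call, and those with changes of at least 0.9 are named. ULK1 and ATG2A, the genes that fell furthest, sit at the GC-rich end, while ATG16L2 is GC-rich and higher. ATG4D and ATG4B, not named, are GC-rich too (64.75% and 60.87%) and lie at -0.02 and 0.04.

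Among the MiT/TFE transcription factors, which bind E-box-like sites before many lysosomal and autophagy genes, TFE3 fell and the other two did not pass the threshold. TFE3 had 401, 485 and 426 normalised counts with IPI-9119, against 846, 921 and 874 with DMSO. Every IPI-9119 library lay below every DMSO library, and the DMSO mean was 2.01 times the IPI-9119 mean. The log2 fold change was -1.01 (SE 0.083, adjusted p = 1.26e-07), and -0.85 and -0.68 under the 2 corrections. TFEB, the best studied factor of the family, had 104, 105 and 114 normalised counts with IPI-9119, against 91.2, 109 and 103 with DMSO. The groups overlapped, and the difference was 0.09 with a 95% interval of -0.22 to 0.40 (adjusted p = 0.589). The length and GC correction gave 0.35 (adjusted p = 0.0371) and the one by principal transcript 0.27 (adjusted p = 0.115). MITF, the melanocyte regulator of the family, averaged 150 ± 24.3 normalised counts with IPI-9119 and 175 ± 11.7 with DMSO (SD, n = 3 each; log2 fold change -0.23, adjusted p = 0.161). Its difference passed the threshold under both corrections, at -0.32 and -0.34.

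Start-site windows of the autophagy genes were searched on both strands for the core of the site that MiT/TFE factors bind, CACGTG, and for its longer form in lysosomal genes, the CLEAR element. RefSeq windows on GRCh38.p14, from 250 bases before to 50 bases after a start site, were matched for 37 of the 42 genes, which have 49 windows since some genes list several start sites. CACGTG lay in 2 of the 49 windows (4.08%), those of ATG3 and ATG14, against 7.26% of all 35116 windows. The CLEAR element lay in none of them and in 0.353% of all windows. The sterol element TCACNCCAC is the kind of site that SREBP factors bind. It lay in 2 of the 49 windows (4.08%), those of NBR1 and TFEB, against 1.13% of all windows. These matches are descriptions of the letters and do not show binding. The 4 windows follow, 5′ to 3′ on the gene's strand, with the match in capitals, CACGTG in ATG3 and ATG14 and TCACNCCAC or its reverse complement in NBR1 and TFEB. They are shown because CACGTG is the site that links TFE3 to its known targets and TCACNCCAC the site that links fatty acid synthesis genes to SREBP.
ATG3: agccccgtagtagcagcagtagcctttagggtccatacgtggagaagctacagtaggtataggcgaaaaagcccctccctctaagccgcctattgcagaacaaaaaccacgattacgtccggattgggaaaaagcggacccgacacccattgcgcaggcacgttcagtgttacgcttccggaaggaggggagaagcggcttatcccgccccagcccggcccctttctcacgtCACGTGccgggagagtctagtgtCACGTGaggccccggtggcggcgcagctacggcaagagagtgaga
ATG14: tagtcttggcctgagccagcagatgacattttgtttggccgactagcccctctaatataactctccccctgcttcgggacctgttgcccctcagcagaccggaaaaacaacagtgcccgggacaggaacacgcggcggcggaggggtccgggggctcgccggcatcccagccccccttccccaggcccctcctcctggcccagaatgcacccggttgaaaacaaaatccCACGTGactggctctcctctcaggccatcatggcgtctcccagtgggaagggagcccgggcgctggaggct
NBR1: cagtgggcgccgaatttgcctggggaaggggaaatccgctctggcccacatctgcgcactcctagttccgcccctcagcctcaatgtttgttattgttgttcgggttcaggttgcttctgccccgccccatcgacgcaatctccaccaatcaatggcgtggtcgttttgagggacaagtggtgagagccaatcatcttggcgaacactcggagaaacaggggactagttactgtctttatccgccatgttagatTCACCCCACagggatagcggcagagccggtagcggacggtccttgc
TFEB: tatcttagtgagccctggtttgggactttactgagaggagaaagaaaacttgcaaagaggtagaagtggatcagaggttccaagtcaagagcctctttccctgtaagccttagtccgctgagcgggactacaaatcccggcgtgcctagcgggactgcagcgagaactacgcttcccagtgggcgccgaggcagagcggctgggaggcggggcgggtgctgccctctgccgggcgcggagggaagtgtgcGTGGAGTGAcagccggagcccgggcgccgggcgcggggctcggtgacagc
The ATG3 window covers chr3:112561913-112562212 on the minus strand and holds CACGTG from 18 bases before the start site and again from base 6. The ATG14 window covers chr14:55411781-55412080 on the minus strand, with the match from 21 bases before the start. The NBR1 window is chr17:43170964-43171263 on the plus strand and the TFEB window chr6:41735559-41735858 on the minus strand, with matches from bases 5 and 1 after the start. The genes of these 4 windows went different ways: ATG3 was higher, ATG14 and NBR1 were lower, and TFEB did not pass the threshold. The stress-response sites TTGCATCA (the ATF4 and CHOP composite site) and TGACNNNGC (the antioxidant element) were searched in the same way. The first lay in none of the 37 genes and in 0.866% of all windows. The second lay in 3 of the 49 windows (6.12%), at ATG101, CALCOCO2 and MAP1LC3B, against 13.3% of all windows.

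In the ULK1 complex, which receives signals from the nutrient kinases and starts autophagosome formation, 3 of 5 genes fell and 1 rose, where 31.4% and 31.3% of all genes did. ULK1, its kinase (chromosome 12, 131894651 to 131923167, plus strand, GRCh38), fell furthest of all 40 genes. It had 92.8, 113 and 99.0 normalised counts with IPI-9119, against 452, 490 and 445 with DMSO. Each group was tight and the groups lay far apart, the DMSO mean being 4.55 times the IPI-9119 mean (102 ± 10.6 with IPI-9119, 462 ± 23.8 with DMSO, SD, n = 3 each). The log2 fold change was -2.18 (SE 0.113, 95% interval -2.42 to -1.94, adjusted p = 1.14e-09). The length and GC correction gave -1.30 (adjusted p = 1.03e-08), and that by principal transcript -1.05 (adjusted p = 4.33e-08). Its longest transcript has a GC content of 64.2%.

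ULK2, the related kinase, went the other way, with 528, 556 and 599 normalised counts with IPI-9119, against 404, 491 and 511 with DMSO. The lowest IPI-9119 library lay just above the highest DMSO library (log2 fold change 0.27, adjusted p = 0.0265). That call was lost without IPI-9119 replicate 2, IPI-9119 replicate 3 or DMSO replicate 1 and without trend and robust moderation, and was kept under both corrections, at 0.43 and 0.39. RB1CC1, the large scaffold FIP200, fell to 2600.5 ± 104 with IPI-9119, against 3165 ± 149 with DMSO (log2 fold change -0.28, adjusted p = 0.000337). ATG101, which stabilises ATG13, fell to 1442 ± 9.94, against 1698 ± 150 with DMSO (-0.23, adjusted p = 0.00663). ATG13, the regulatory subunit, did not pass the threshold (-0.12, 95% interval -0.25 to 0.01, adjusted p = 0.0921).

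The ULK1 start-site window and that of OPTN, the gene that rose furthest, are shown side by side because they are the extremes of the set. Capitals mark GGGCGG or its reverse complement, the GC box that Sp1-type factors bind.
ULK1: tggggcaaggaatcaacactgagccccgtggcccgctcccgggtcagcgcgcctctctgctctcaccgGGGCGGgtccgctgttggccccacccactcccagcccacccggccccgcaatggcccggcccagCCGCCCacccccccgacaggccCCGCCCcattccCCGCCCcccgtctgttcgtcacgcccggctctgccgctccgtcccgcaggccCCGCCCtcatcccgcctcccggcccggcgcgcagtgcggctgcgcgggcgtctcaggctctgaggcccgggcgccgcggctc
OPTN: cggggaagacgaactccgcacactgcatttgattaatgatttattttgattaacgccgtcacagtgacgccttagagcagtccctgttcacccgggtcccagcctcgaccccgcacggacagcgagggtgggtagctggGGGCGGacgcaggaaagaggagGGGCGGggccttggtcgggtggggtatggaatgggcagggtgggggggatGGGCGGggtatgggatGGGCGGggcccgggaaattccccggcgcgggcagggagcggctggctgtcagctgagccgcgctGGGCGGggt
The ULK1 window is chr12:131894372-131894671 and the OPTN window chr10:13099832-13100131, the first of 2 OPTN windows listed with a match, both on the plus strand. Each holds 5 matches, and their GC content is 78.3% for ULK1 and 66.3% for OPTN. GGGCGG lay in 33 of the 49 windows (67.3%), against 45.0% of all windows, and genes that rose, fell or did neither are among those that hold it. For this and the other motifs, all windows were not limited to genes with a row in the table used. Shares over such genes alone were not worked out.

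In the class III PI3-kinase complex, 3 of 6 genes were lower (31.4% of all genes were), none was higher and 3 did not pass the threshold. BECN1, the scaffold Beclin 1, had 1591, 1474 and 1376 normalised counts with IPI-9119, against 1398, 1462 and 1373 with DMSO. The groups overlapped, and the log2 difference of 0.07 had a 95% interval of -0.07 to 0.20 (adjusted p = 0.372). Under the principal transcript correction BECN1 was lower, at -0.14 (adjusted p = 0.0316). PIK3C3, the lipid kinase VPS34, differed by 0.02 (95% interval -0.12 to 0.15, adjusted p = 0.848), and UVRAG, the subunit of the endosomal form of the complex, by 0.15 (-0.06 to 0.35, adjusted p = 0.195).

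The subunit that directs the complex to autophagy, ATG14, had 210, 177 and 253 normalised counts with IPI-9119, against 257, 268 and 267 with DMSO. All IPI-9119 libraries were below the DMSO ones, replicate 3 only just (log2 fold change -0.32, adjusted p = 0.0379). The ATG14 call was lost in DESeq2, under quantile scaling, without trend and robust moderation, and on leaving out any of IPI-9119 replicate 2 and DMSO replicates 1, 2 and 3, and it was kept under both corrections (-0.49 and -0.36). PIK3R4, the kinase's membrane anchor VPS15, fell to 1208 ± 33.6 with IPI-9119, against 1384 ± 52.7 with DMSO (-0.20, adjusted p = 0.00862). AMBRA1, a regulator of Beclin 1 and ULK1, was lower at 257 ± 17.3 with IPI-9119, against 362 ± 35.6 with DMSO (-0.49, adjusted p = 0.000868). That call was lost under both corrections, at -0.07 (adjusted p = 0.528) and -0.04 (adjusted p = 0.696).

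Among the PI3P effectors and lipid transfer genes, 3 of 5 fell and 1 rose, against the same 31.4% and 31.3% of all genes. Both genes of ATG2, the channel that moves lipid into the growing membrane, were lower. ATG2A had 65.4, 141 and 131 normalised counts with IPI-9119, against 355, 465 and 423 with DMSO. The groups lay well apart although IPI-9119 replicate 1 was well below the others of its group, and the DMSO mean was 3.69 times the IPI-9119 mean. The log2 fold change was -1.94 (SE 0.266, adjusted p = 0.000191), and -1.60 without that library. The length and GC correction gave -1.04 (adjusted p = 0.000155), and that by principal transcript -0.62 (adjusted p = 0.00488). ATG2B had 753, 1032 and 1121 normalised counts with IPI-9119, against 1265, 1500 and 1477 with DMSO. Again IPI-9119 replicate 1 was the lowest of its group and no libraries overlapped (log2 fold change -0.56, adjusted p = 0.0067, and -0.33 and -0.18 under the corrections).

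WIPI1, a PI3P-binding protein of the forming autophagosome, rose. It had 507, 456 and 497 normalised counts with IPI-9119, against 309, 363 and 308 with DMSO, a ratio of means of 1.49. All IPI-9119 libraries exceeded all DMSO libraries (log2 fold change 0.58, SE 0.0936, adjusted p = 9.71e-05). WIPI2, which recruits ATG16L1, differed by -0.04 (95% interval -0.15 to 0.08, adjusted p = 0.563). Its sign and call depend on the correction: it was higher by length and GC content (0.43, adjusted p = 1.16e-05) and lower by principal transcript (-0.13, adjusted p = 0.0318). ATG9A, the scramblase that seeds the membrane, averaged 749 ± 67.4 with IPI-9119 and 911 ± 26.9 with DMSO (-0.29, adjusted p = 0.00436). The corrections gave -0.06 (adjusted p = 0.462) and 0.21 (adjusted p = 0.00597), so the sign of ATG9A differed between the fits. Annotated exons of AC068946.2 on the same strand cover 38.8% of ATG9A, and exons of ARSG on the other strand, which fell by 0.79 on the log2 scale, cover 24.3% of WIPI1.

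**Figure D3:**
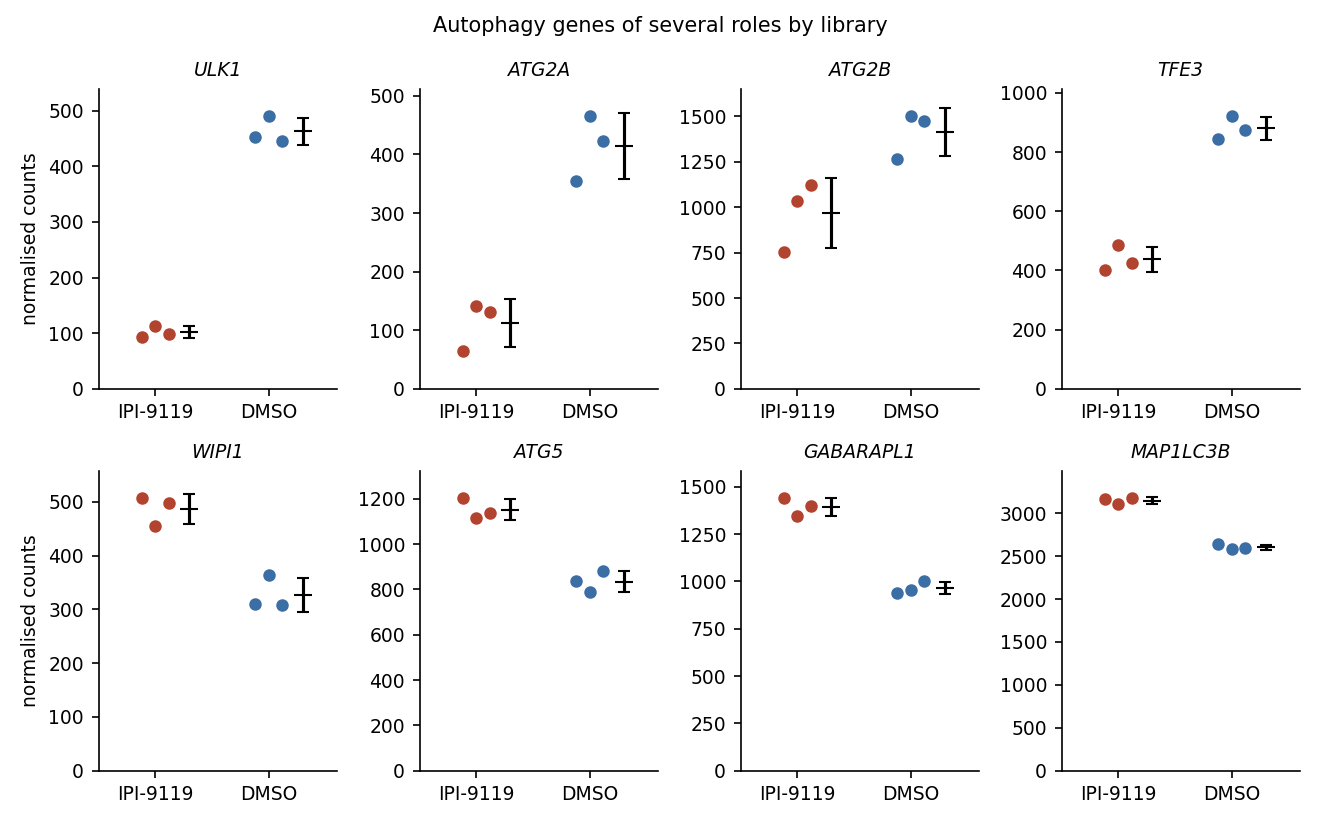
Normalised counts in each library for 8 of the autophagy genes, IPI-9119 left of DMSO, each panel starting at 0. Points are libraries and the bar beside them is the mean with its SD (n = 3). The groups do not overlap in any panel, with ULK1, ATG2A, ATG2B and TFE3 lower with IPI-9119 and WIPI1, ATG5, GABARAPL1 and MAP1LC3B higher.

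Conjugation enzymes attach ATG12 to ATG5 and the Atg8 proteins to lipid. Of 7 genes, 3 were higher, 1 was lower and 3 did not pass the threshold, a share called of 57.1%, below the 62.8% of all genes. ATG5, the target of ATG12, had 1204, 1115 and 1136 normalised counts with IPI-9119, against 836, 789 and 881 with DMSO. The groups were well apart (log2 fold change 0.46, SE 0.0655, adjusted p = 2.71e-05, and 0.26 and 0.23 under the corrections). ATG3, the E2-like enzyme that acts on LC3, rose to 1842 ± 150 with IPI-9119, against 1418 ± 69.9 with DMSO (0.38, adjusted p = 0.000199). ATG7, the E1-like enzyme of both conjugation systems, was lower at 792 ± 40.7 with IPI-9119, against 907 ± 38.5 with DMSO (-0.20, adjusted p = 0.0215). The ATG7 call was lost, with the sign turned, under both corrections (0.09, adjusted p = 0.333, and 0.01, adjusted p = 0.876), and lost without IPI-9119 replicate 2, DMSO replicate 1 or DMSO replicate 3.

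ATG12 (0.15, 95% interval 0.01 to 0.28, adjusted p = 0.0518), ATG10, its E2-like enzyme (0.09, -0.15 to 0.33, adjusted p = 0.497), and ATG16L1, which places the ATG12 and ATG5 conjugate on the membrane (0.02, -0.22 to 0.26, adjusted p = 0.894), did not pass the threshold. ATG16L2, a homologue of ATG16L1, rose but rests on few reads, 115 over the 3 IPI-9119 libraries and 66 over the 3 DMSO libraries. It had 36.9, 51.3 and 36.3 normalised counts with IPI-9119, against 13.4, 22.6 and 24.8 with DMSO. The groups did not overlap (log2 fold change 1.02, SE 0.289, adjusted p = 0.00676, and 1.78 and 1.15 under the corrections). Per kb of its principal transcript it was nonetheless the lowest of the 40 genes with DMSO and the second lowest with IPI-9119.

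ATG4 proteases prime the Atg8 proteins and release them from lipid. ATG4A, which acts mainly on the GABARAP proteins, was higher at 1175 ± 34.8 normalised counts with IPI-9119, against 938 ± 69.5 with DMSO (log2 fold change 0.33, adjusted p = 0.000693). That call was lost under both corrections (0.07, adjusted p = 0.358, and 0.09, adjusted p = 0.189). ATG4B, the most active of the family, differed by 0.04 (95% interval -0.12 to 0.20, adjusted p = 0.647), but was called higher under both corrections, at 0.62 (adjusted p = 6.5e-05) and 0.20 (adjusted p = 0.0334). ATG4C (0.06, -0.10 to 0.22, adjusted p = 0.514) and ATG4D (-0.02, -0.19 to 0.14, adjusted p = 0.799) did not pass the threshold. ATG4C was called lower by principal transcript, at -0.24 (adjusted p = 0.00831), and stood at -0.17 (adjusted p = 0.0642) after the length and GC correction.

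Of the 4 measured genes of the Atg8 proteins themselves, 3 were called higher (31.3% of all genes were) and none lower, while under both corrections the fourth, GABARAPL2, was called lower. MAP1LC3B, the LC3 commonly used as an autophagosome marker, had 3162, 3106 and 3178 normalised counts with IPI-9119, against 2637, 2587 and 2592 with DMSO. Replicates lay close together and the groups well apart (log2 fold change 0.27, SE 0.0457, adjusted p = 0.000126, and 0.23 and 0.13 under the corrections). GABARAPL1 had 1441, 1347 and 1399 normalised counts with IPI-9119, against 939, 956 and 1001 with DMSO, a ratio of means of 1.45. This was the largest change of the 4 (0.53, SE 0.059, adjusted p = 2.65e-06, and 0.36 under either correction). GABARAP rose to 4953 ± 111 with IPI-9119, against 4062 ± 155 with DMSO (0.29, adjusted p = 0.000107, and 0.13 and 0.11 under the corrections). GABARAPL2 did not pass the threshold (0.12, 95% interval 0.01 to 0.23, adjusted p = 0.0602) and was lower under both corrections, at -0.14 each (adjusted p = 0.016 and 0.00905).

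Per kb of principal transcript, the summed level of the 4 Atg8 genes ran from 8506 to 8958 with IPI-9119 and from 7140 to 7646 with DMSO, and its makeup moved little. GABARAPL2 made up 43.3% of it with IPI-9119 and 46.7% with DMSO, GABARAP 35.0% and 33.6%, MAP1LC3B 13.5% and 13.1%, and GABARAPL1 8.22% and 6.66%. Reads of MAP1LC3B may include some of MAP1LC3B2, since their reading frames differ at 2 of 378 bases. Exons of AC120057.2 on the same strand cover 30.5% of GABARAP.

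Of the 6 cargo receptors, 2 were called higher and 4 lower, in the same direction with and without the corrections. At the 62.8% of all genes called (64.8% and 65.3% after the corrections), most members of any list are called, so the sizes below say more than the count. OPTN, optineurin, a receptor for ubiquitin-marked mitochondria and bacteria (chromosome 10, 13099449 to 13138308, plus strand, GRCh38), rose furthest of all 40 genes. It had 489, 505 and 458 normalised counts with IPI-9119, against 59.0, 76.4 and 47.8 with DMSO. The lowest IPI-9119 library stood far above the highest DMSO library, and the ratio of means was 7.93. The log2 fold change was 2.99 (SE 0.154, 95% interval 2.66 to 3.32, adjusted p = 1.04e-09), and 2.83 and 2.86 under the corrections. Behind it were 1343 reads over the IPI-9119 libraries and 199 over the DMSO libraries.

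SQSTM1, the receptor p62, was also higher. It had 18044, 17599 and 17002 normalised counts with IPI-9119, against 12948, 12396 and 13271 with DMSO. The groups were far apart for their spread (log2 fold change 0.45, SE 0.0448, adjusted p = 9.57e-07). Corrected for length and GC content, SQSTM1 stood at 0.99 (adjusted p = 6.78e-09), and by principal transcript at 0.59 (adjusted p = 1.63e-09). Exons of MRNIP on the other strand cover 20.7% of SQSTM1. MRNIP averaged 117 normalised counts over the 6 libraries and fell by 0.89 on the log2 scale, and its part in the SQSTM1 value was not tested.

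The other receptors fell. NBR1, a receptor for ubiquitin-marked aggregates that binds p62, had 3419, 3666 and 3592 normalised counts with IPI-9119, against 5177, 5368 and 5225 with DMSO. No libraries overlapped (log2 fold change -0.56, SE 0.0465, adjusted p = 1.35e-07, and -0.52 and -0.60 under the corrections). CALCOCO1, a receptor for the endoplasmic reticulum, had 493, 448 and 425 normalised counts with IPI-9119, against 711, 751 and 648 with DMSO. These groups were also apart (-0.63, SE 0.0847, adjusted p = 1.79e-05, and -0.28 and -0.68 under the corrections). CALCOCO2, the receptor NDP52 for bacteria and mitochondria, fell to 2216 ± 102 with IPI-9119, against 3100 ± 45.0 with DMSO (-0.48, adjusted p = 1.44e-06). TAX1BP1, its relative that clears aggregates, fell to 4969 ± 105, against 6529 ± 331 with DMSO (-0.39, adjusted p = 7.5e-06, and -0.20 and -0.63 under the corrections).

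**Figure D4:**
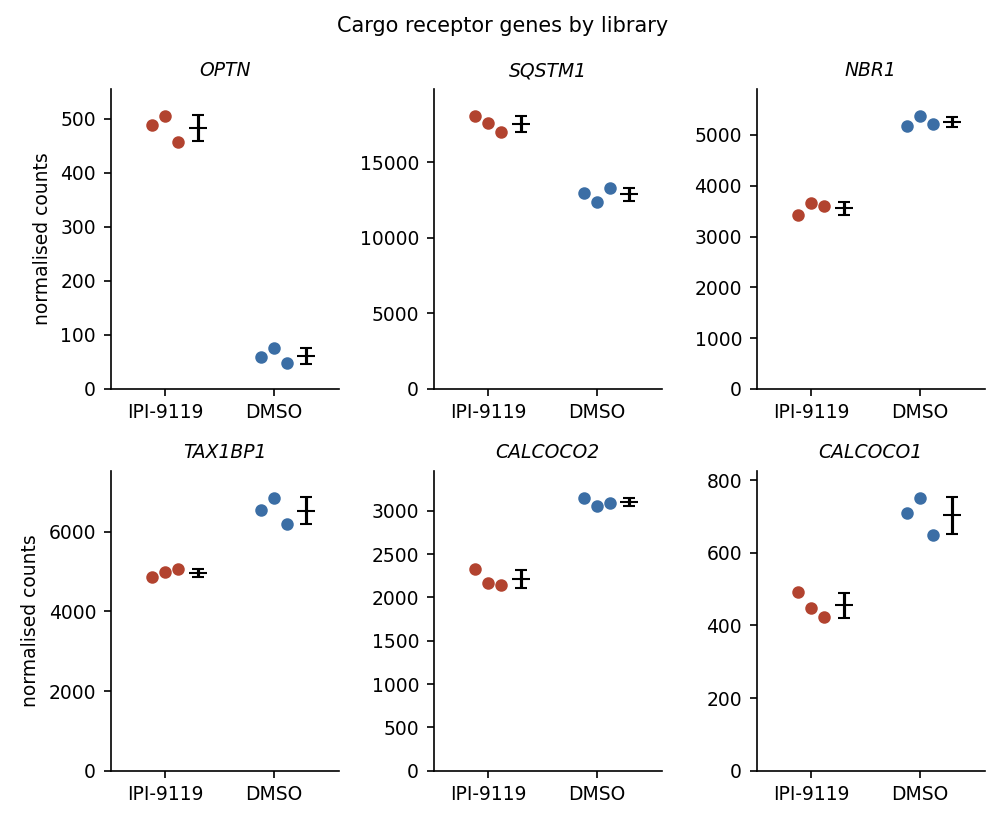
Normalised counts of the 6 cargo receptor genes in each library, IPI-9119 left of DMSO, each panel starting at 0. Points are libraries and the bar beside them is the mean with its SD (n = 3). OPTN and SQSTM1 are higher in every IPI-9119 library, and NBR1, TAX1BP1, CALCOCO2 and CALCOCO1 lower in every one.

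Because the receptors moved in opposite directions, their summed level per kb of principal transcript was close in the groups, 9117 to 9446 with IPI-9119 and 8842 to 8897 with DMSO, while its makeup shifted. SQSTM1 made up 63.2% ± 0.759 of the sum with IPI-9119, against 48.6% ± 1.69 with DMSO (SD, n = 3 each). TAX1BP1 made up 18.5% with IPI-9119 and 25.5% with DMSO, NBR1 8.22% and 12.7%, CALCOCO2 6.47% and 9.50%, and CALCOCO1 2.14% and 3.46%. OPTN stayed a minor receptor at 1.49% ± 0.0566 with IPI-9119, against 0.198% ± 0.0468 with DMSO. These shares assume the principal transcript of each gene, and shares of a common sum are not independent of each other.

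**Figure D5:**
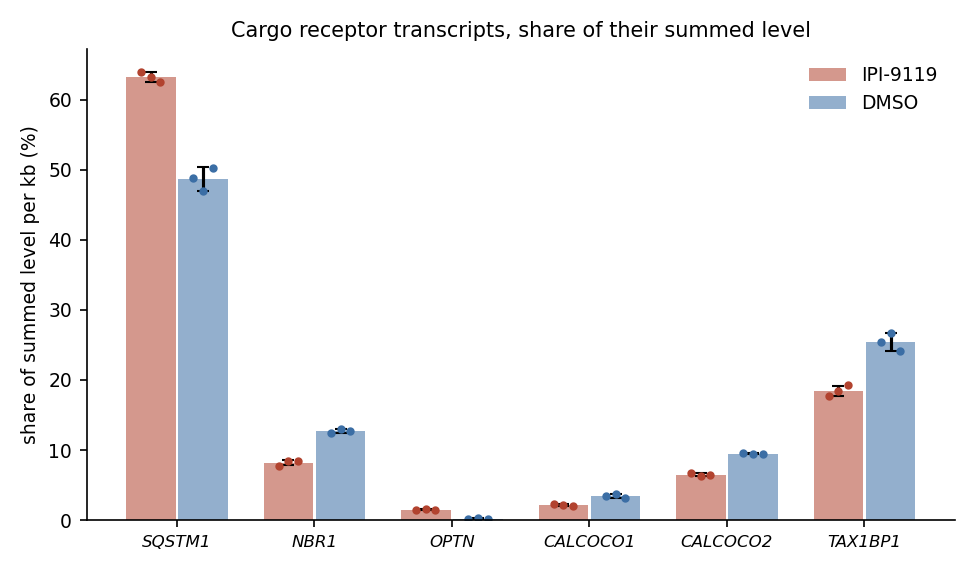
Share of each cargo receptor in the summed level per kb of the 6 receptors, in percent, IPI-9119 left of DMSO. Bars are means, error bars the SD and points the libraries (n = 3 each). SQSTM1 takes 63.2% with IPI-9119 and 48.6% with DMSO, and every other receptor but OPTN takes a smaller share with IPI-9119.

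The order of the 40 genes by level per kb changed little at the top. SQSTM1 was highest in both groups, with 5877 normalised counts per kb with IPI-9119 and 4311 with DMSO, followed in both by GABARAPL2, GABARAP and TAX1BP1. OPTN was 26th of the 40 with IPI-9119 and 39th with DMSO, at 139 and 17.5 per kb. ULK1 was 38th with IPI-9119 and 29th with DMSO.

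Other genes of the pathway also went both ways, with 22 of 65 tested genes higher, 22 lower and 21 not past the threshold, a share called of 67.7% against the 62.8% of all genes. Of 24 genes of autophagosome closure, fusion and other core steps, 8 were higher and 8 lower (33.3% each), with a median log2 fold change of -0.09. After the length and GC correction the median was -0.01. It then called 5 higher and 8 lower, where 30.7% and 34.1% of all genes were. TP53INP1, a stress-induced protein that binds Atg8 proteins, had 6046, 6503 and 6451 normalised counts with IPI-9119, against 2195, 2209 and 2291 with DMSO, far apart and with a ratio of means of 2.84. TP53INP2, its relative, had 127, 237 and 238 with IPI-9119, against 338, 376 and 368 with DMSO, lower in every library and lowest in replicate 1 (-0.90, adjusted p = 0.00548). TECPR1, a factor of autophagosome and lysosome fusion, averaged 824 ± 62.7 with IPI-9119 and 1819 ± 96.5 with DMSO (-1.14). For TECPR1 the value was -0.25 (adjusted p = 0.000965) after the length and GC correction and 0.01 (adjusted p = 0.838) by principal transcript.

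Of 19 receptors for organelles and other selective cargo, 8 were higher (42.1%) and 5 lower (26.3%), with a median of 0.04. After the length and GC correction the median was -0.07. It then called 6 higher and 6 lower, where 30.7% and 34.1% of all genes were. NIPSNAP1, a mitochondrial protein that marks damaged mitochondria, averaged 4522 ± 86.2 normalised counts with IPI-9119 and 2954 ± 72.9 with DMSO (log2 fold change 0.61). STBD1, a glycogen receptor, averaged 192 ± 3.68 with IPI-9119 and 137 ± 15.6 with DMSO (0.49, adjusted p = 0.00331). CCPG1, a receptor for the endoplasmic reticulum, averaged 1798 ± 89.9 with IPI-9119 and 2499 ± 78.6 with DMSO (-0.48).

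Of 22 upstream regulators, 6 were higher (27.3%) and 9 lower (40.9%), against 31.3% and 31.4% of all genes, with a median of -0.19. After the length and GC correction the median was -0.02. It then called 8 higher and 10 lower, where 30.7% and 34.1% of all genes were. MTOR, the kinase that holds the ULK1 complex inactive when nutrients are plentiful, had 663, 862 and 929 normalised counts with IPI-9119, against 2065, 2492 and 2413 with DMSO. The groups lay far apart (log2 fold change -1.51, and -0.99 and -0.90 under the corrections). RPTOR, the mTORC1 subunit raptor, had 105, 144 and 151 with IPI-9119, against 329, 419 and 376 with DMSO, again without overlap (-1.49, and -0.63 and -0.54 under the corrections). FOXO1, a transcription factor of the starvation response, had 135, 152 and 191 with IPI-9119, against 377, 369 and 335 with DMSO, also apart (-1.19). BCL2, which binds and holds back Beclin 1, went the other way, with 52.7 ± 8.09 with IPI-9119 and 24.5 ± 9.14 with DMSO (1.12, adjusted p = 0.00249).

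Of the 40 autophagy genes, 20 share exonic bases with an annotated gene on the opposite strand. The strand setting of the counting was not given in the sources used here, so reads of such pairs cannot be told apart. The largest such shares among called genes, beside those of WIPI1 and SQSTM1 given above, were 25.2% of the exonic length of GABARAP with AC120057.3, 19.2% of ATG101 with AC025259.1 and 18.1% of ATG7 with VGLL4. AC120057.3 averaged 23.4 normalised counts. VGLL4 was higher by 0.63 on the log2 scale.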

How the data were processed

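Polyadenylated RNA of C4-2 cells was sequenced in 3 IPI-9119 and 3 DMSO libraries. The deposited values are a signal: the authors scaled read counts per gene by library size factors, as the values show. The submitters' processing notes name GRCh38, DESeq2, featureCounts, Subread 1.5.2, STAR 2.5.2b and Trimmomatic 0.36, without role or order. Low values were whole multiples of 1 read, and 100% of values came out whole within 0.01 read, giving totals of 19090749 to 23448035 reads. Depth limits the precision of low genes most.

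The test was limma 3.58.1 (R 4.3.3; trend and robust options) on log2(value + 1), a scale that understates changes of low genes. Tested were the 14437 genes with a mean of at least 10, which left out 19 and kept all 40 autophagy genes with a row. Tests were two-sided, with Benjamini-Hochberg adjustment over all genes tested. On the recovered reads edgeR 4.0.16 called 9072 genes and DESeq2 1.42.0 called 8460, against 9061 with limma. Names, positions and merged exonic lengths came from GENCODE 29, which held 14409 of the 14456 IDs. The length and GC correction removed from each library a spline surface (4 degrees of freedom for log2 merged exonic length, 4 for GC content of the longest transcript, and their interaction). The version by principal transcript was added after seeing the data.

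Replicates differed by more than counting error (chi-square per degree of freedom 2.31 to 9.76). The labels do not tell whether they were separate cultures, and p-values reflect the spread between libraries, which may be technical. Every autophagy gene with a row could be named, with values of each library for called genes changed by at least 0.5 on the log2 scale and for ULK1, BECN1, MAP1LC3B, SQSTM1 and TFEB. Values of each library for ULK2, ATG14 and ATG5 were added after their values were seen. Of each related list the 3 called genes with the largest change were named, and the largest the other way where these went 1 way. The genes and lists were chosen with earlier results of these data known.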

Additional observations from a re-analysis of the deposited data

How the results depend on the processing

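Counts of called autophagy genes ran from 10 to 13 higher and 13 to 17 lower over the 19 alternatives. Over all genes tested, these counts ran from 3930 to 4797 higher and from 4022 to 5133 lower. Of the 26 calls, 20 (9 higher, 11 lower) held in every alternative that tested the gene, which was all 19 except for ATG16L2, not tested at a mean of at least 50. The others were ULK2, ATG14, AMBRA1, ATG9A, ATG7 and ATG4A. The labels do not say whether replicate numbers pair the libraries. Deviations of same-numbered libraries correlated at 0.341, 0.182 and -0.026, and IPI-9119 replicate 3 correlated best with DMSO replicate 2 (0.267). With 3 libraries a group these values cannot decide whether the libraries were paired. With a replicate block 13 autophagy genes were higher and 16 lower. Counts over all genes rose as well, to 4797 higher and 4799 lower, from 4522 and 4539 without the block. Signs turned after the length and GC correction, with or without the block, for ATG13 (0.089), WIPI2 (0.43), ATG7 (0.092), ATG10 (-0.070), ATG16L1 (-0.0014), ATG4C (-0.17), ATG4D (0.048) and GABARAPL2 (-0.14). By principal transcript they turned for ATG13 (0.027), BECN1 (-0.14), ATG9A (0.21), ATG7 (0.015), ATG10 (-0.095), ATG12 (-0.038), ATG4C (-0.24), ATG4D (0.091) and GABARAPL2 (-0.14), and under quantile scaling for ATG4D (0.070). The cause was not tested. Leaving out 1 library moved PIK3C3 between -0.040 and 0.051, ATG16L1 between -0.066 and 0.10, and ATG4B between -0.031 and 0.083. Depth limits ATG16L2 most, at 66 reads over the DMSO libraries.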
